A study of Homo sapiens with 2 samples.

Results

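SNAI1, SNAI2, ZEB1, ZEB2, TWIST1 and TWIST2 encode the core transcription factors of the epithelial-mesenchymal transition (EMT). They were taken by gene symbol, as every probe set annotated to 1 of these 6 genes, which gave 14 of the 49395 probe sets and 6 of the 18132 named genes on the arrays. Their levels were read in H1299 cells transfected with a pcDNA3.1 plasmid carrying EGR1 and in H1299 cells that received pcDNA3.1 alone. H1299 is a human lung carcinoma cell line, and EGR1 is a zinc-finger transcription factor that growth factors and stress switch on within minutes to hours. Both plasmids were delivered with Lipofectamine, both sets of cells were collected 48 h later, and 1 Affymetrix array was hybridised per group. The study was set up to find the genes through which EGR1 acts on the malignancy of these cells. The transfection was transient and the share of cells that took up plasmid is not given in the sources used here, so each level averages over cells with and without plasmid.

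Levels are given on the log2 scale of RMA (robust multi-array average), a procedure that subtracts background, brings arrays to a common scale and combines the probes of each set into 1 value. Every difference is EGR1 array minus empty-vector array on that scale. With 1 array per group there is no replicate error, no test and no p-value, and a difference describes these 2 arrays. For each gene the brightest probe set was used, and the gene was called when its mean level was past a floor of 5.22, below which 40% of probe sets lay, and it differed by 1.5-fold or more. The only repeat measurement is that of several probe sets for 1 gene, whose pooled SD was 0.15 over 7113 genes and which covers probe-level error alone. In bulk RNA, fewer cells of a type and less RNA per cell cannot be told apart. Across both arrays the values correlated with r = 0.995 over all probe sets, which are not independent replicates. The transfected gene had 6 probe sets, of which 2 were higher in the EGR1 array (13.3-fold and 6.76-fold) and 4 differed by -0.39 to -0.20. In the empty-vector array those 2 read 7.70 and 7.17, and the 4 read 9.70 to 10.51. By its brightest probe set EGR1 differed by -0.39, so the rule used for calls did not call the transfected gene.

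The EMT transcription factors switch off the adhesion programme of epithelial cells and allow a motile, mesenchymal state. SNAI1 (Snail) and SNAI2 (Slug) are zinc-finger repressors that bind E-boxes with the core CAGGTG and recruit corepressors through their amino-terminal SNAG domain. ZEB1 and ZEB2 carry zinc-finger clusters near both ends of the protein, bind the same kind of E-box and recruit CtBP corepressors. TWIST1 and TWIST2 are basic helix-loop-helix factors that bind DNA as dimers with E proteins such as TCF3 and TCF4. The E-cadherin gene CDH1 is their best-known shared target, and in lung carcinoma lines a high ZEB1 level commonly goes with loss of E-cadherin.

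RefSeq promoter windows (build GRCh38.p14) were held for 3 of the 6 genes, namely ZEB1, ZEB2 and TWIST2, and the 250 bases before each start site were searched on both strands for the EGR1 motif GCGNGGGCG and for the E-box CAGGTG. The TWIST2 window is shown because it was the window of these 3 genes that held the EGR1 motif. The most upstream of the 7 ZEB1 windows is shown because it holds an E-box, the motif that the family itself binds. The window of CRB3, a polarity gene known to be repressed by Snail and ZEB factors, is shown as a target with many E-boxes. Capitals mark the motif matches, and each sequence reads 5′ to 3′ on the gene's strand, which is the + strand for all 3, at chr2:238847835-238848084 (TWIST2), chr10:31318167-31318416 (ZEB1) and chr19:6464021-6464270 (CRB3).
TWIST2: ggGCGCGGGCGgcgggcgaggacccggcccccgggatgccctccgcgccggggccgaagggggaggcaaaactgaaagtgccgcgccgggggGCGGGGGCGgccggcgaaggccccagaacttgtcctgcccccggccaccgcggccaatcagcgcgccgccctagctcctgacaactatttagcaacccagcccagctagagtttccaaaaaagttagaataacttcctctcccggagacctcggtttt
ZEB1: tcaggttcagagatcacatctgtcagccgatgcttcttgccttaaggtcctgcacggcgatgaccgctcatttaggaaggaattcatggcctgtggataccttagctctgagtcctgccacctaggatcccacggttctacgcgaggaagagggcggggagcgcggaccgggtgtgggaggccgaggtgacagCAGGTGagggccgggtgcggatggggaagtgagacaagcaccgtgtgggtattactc
CRB3: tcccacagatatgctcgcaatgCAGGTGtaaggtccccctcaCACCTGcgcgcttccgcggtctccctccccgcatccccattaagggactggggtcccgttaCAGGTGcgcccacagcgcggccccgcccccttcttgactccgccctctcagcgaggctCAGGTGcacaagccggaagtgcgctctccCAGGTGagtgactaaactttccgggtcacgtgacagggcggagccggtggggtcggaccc
The TWIST2 window held 2 EGR1 matches, both on the sense strand, at -248 to -240 and -158 to -150 from the start site. None of the 7 ZEB1 windows and not the ZEB2 window held that motif, and 10.1% of all 27305 genes with a window held it in at least 1 of their windows. CAGGTG stood in 2 of the 7 ZEB1 windows, 5 times in the CRB3 window, and in 20.6% of all genes. No match overlapped another in the windows shown. A match is a run of letters, not a site shown to be bound.

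SNAI1 was the EMT transcription factor with the largest difference. Its single probe set, 11720513_at, read 6.92 in the EGR1 array and 6.26 in the empty-vector array, a difference of 0.66 or 1.58-fold higher. Both levels lay past the floor, which is not a detection call. The endothelial gene VWF, at 6.21 in both arrays by its brightest probe set, was past it too. Among the 12652 genes past the floor SNAI1 ranked 91st by difference, and 0.719% of those genes differed by as much or more in that direction. Of 2757 genes whose mean level lay within 0.5 of that of SNAI1, 26 had a difference at least as large, and the middle 95% of them ran from -0.40 to 0.43. The pooled SD between probe sets of 1 gene was 0.14 in that band of levels, and SNAI1 differed by 4.63 times that SD. Since that SD covers probe-level error alone, the ratio does not measure variation between arrays or transfections. With 1 probe set, however, SNAI1 has no second reading of its own on these arrays.

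ZEB1 was read by 7 probe sets, which did not all lie on the same side of 0. The brightest, 11721547_s_at, read 9.28 in the EGR1 array and 9.24 in the empty-vector array, a difference of 0.04. The other 6 were all lower in the EGR1 array, by differences from -0.46 to -0.14, so the sign for the gene depends on which probe set stands for it. Over the 7 probe sets the mean difference was -0.18 (SD 0.15 between probe sets, n = 7), or 1.13-fold lower.

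The ZEB1 probe set that differed most was 11721546_s_at, at 6.85 in the EGR1 array and 7.32 in the empty-vector array. Its difference of -0.46 was 1.38-fold lower, and 1.66% of all probe sets had a lower one. Probe set 11758473_s_at read 7.57 in the EGR1 array against 7.75 in the empty-vector array, and 11749644_s_at read 8.52 against 8.69. These differ by -0.18 and -0.17, about 1 pooled SD each. The pair 11721545_x_at (9.03 in the EGR1 array, 9.18 in the empty-vector array) and 11734686_x_at (8.52 in the EGR1 array, 8.67 in the empty-vector array) had the same difference of -0.14 to all 5 decimals given. Counted once, that pair left a mean of -0.18 over 6 distinct differences. The dimmest probe set, 11749136_x_at, read 5.16 in the EGR1 array, under the floor, against 5.34 in the empty-vector array. All 7 are of the _s_at or _x_at type, which can bind related transcripts, so no ZEB1 probe set was left when those types were set aside. Among 2040 genes with 5 or more probe sets the median SD of the difference was 0.15, and 50.5% had an SD under that of ZEB1. The ZEB1 probe sets thus disagreed about as much as those of the median gene. The comparison is not like for like, since probe sets under the floor were included and all 7 of ZEB1 had a mean level past it. With the equal pair counted once the SD of ZEB1 was 0.16.

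ZEB2, the close relative of ZEB1, differed little. Probe set 11756954_s_at read 6.49 in the EGR1 array and 6.54 in the empty-vector array, a difference of -0.05. Probe set 11747942_a_at lay under the floor in both arrays, at 4.68 in the EGR1 array and 4.98 in the empty-vector array, and differed by -0.30. Both ZEB2 readings were thus lower in the EGR1 array, the larger of them from a dim probe set.

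TWIST1, which represses E-cadherin and is active in early mesoderm, had 1 probe set. Probe set 11727666_at read 8.54 in the EGR1 array and 8.64 in the empty-vector array, a difference of -0.09 that is under the pooled probe-level SD. TWIST2, also called Dermo1, read 7.71 in the EGR1 array and 7.74 in the empty-vector array by 11757853_s_at, a difference of -0.04. Its second probe set, 11759871_at, was under the floor in both arrays, at 4.48 in the EGR1 array and 4.77 in the empty-vector array. At its brightest probe set TWIST2, whose window held 2 EGR1 matches, differed by no more than TWIST1 and ZEB2. No window was held for TWIST1, and a link between these matches and the level was not tested. After a lowess correction the TWIST2 difference was 0.005, so it has no settled sign.

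SNAI2 was the EMT transcription factor that lay under the floor at its brightest probe set. Its single probe set, 11744218_at, read 3.39 in the EGR1 array and 3.43 in the empty-vector array. Only 12.7% of all probe sets had a lower mean level. RMA gives no detection call, so this says that the reading was dim, not that the transcript was absent. SNAI1 and SNAI2, the paralogous Snail repressors, thus differed on these arrays in both respects, SNAI1 being past the floor and 1.58-fold higher and SNAI2 dim with a difference of -0.04.

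**Figure D1:**
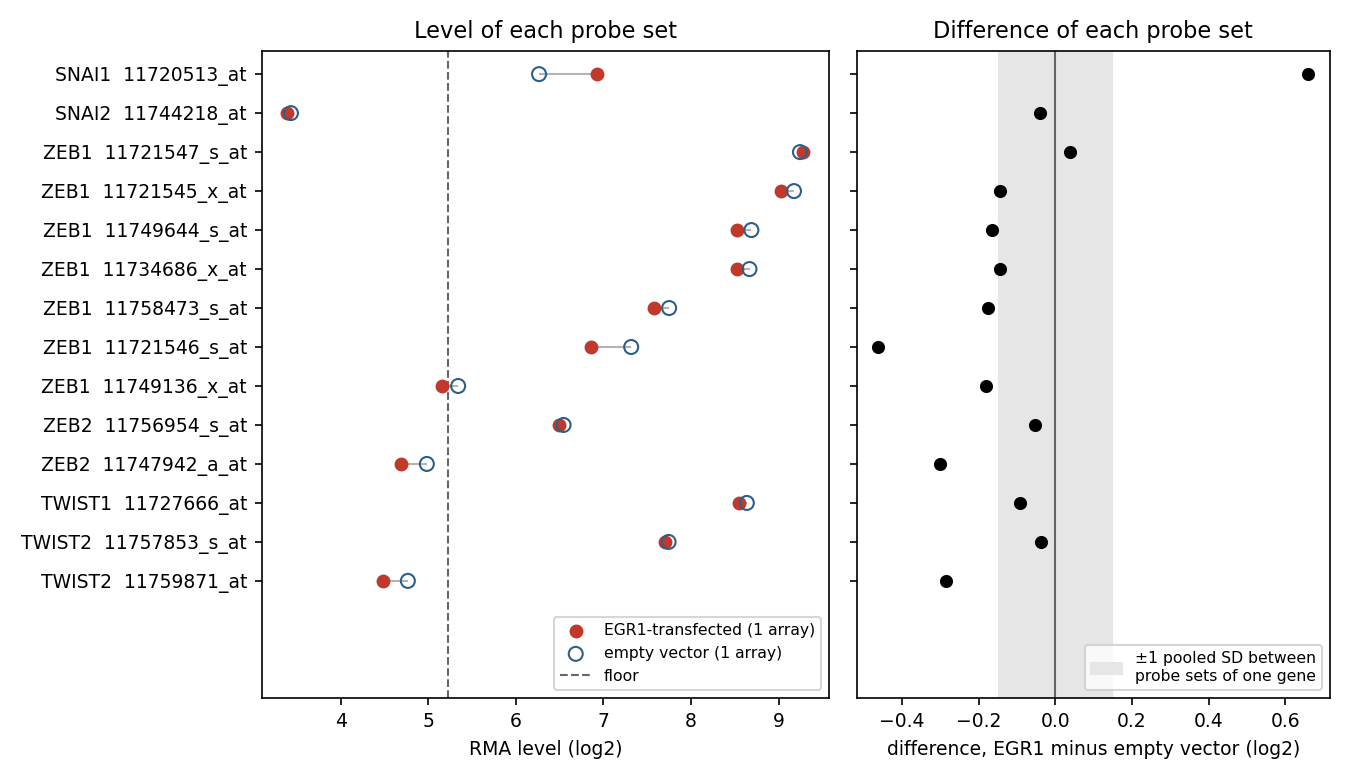
RMA level (log2, left) of each of the 14 probe sets in the EGR1 array (filled) and the empty-vector array (open), and the difference between them (log2, right); the dashed line is the floor of 5.22 and the grey band is 1 pooled SD (0.15) between probe sets of 1 gene on either side of 0. SNAI1 lies at 0.66 on the right, and 12 of the 14 probe sets lie below 0.

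Over the 6 genes, 5 were past the floor, 1 (SNAI1) was called higher at 1.5-fold, none was called lower, and none reached 2-fold. Of all 12652 genes past the floor, 0.941% were called higher, 0.229% lower and 1.17% either way at 1.5-fold. At 2-fold the shares were 0.348% higher, 0.0079% lower and 0.356% either way. The median difference of the 6 genes was -0.04, that of all genes 0 and that of the genes past the floor -0.02. By brightest probe set 3 of the 5 genes past the floor were below 0 (ZEB2, TWIST1 and TWIST2), against 52.8% of all genes past it. Of the 14 probe sets 12 were below 0, as were 48.8% of all probe sets; among those past the floor it was 9 of 11, against 54.5% of all probe sets past the floor. Since 7 of the 14 belong to ZEB1 and a pair of these moved as 1, the probe sets are not independent readings.

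**Figure D2:**
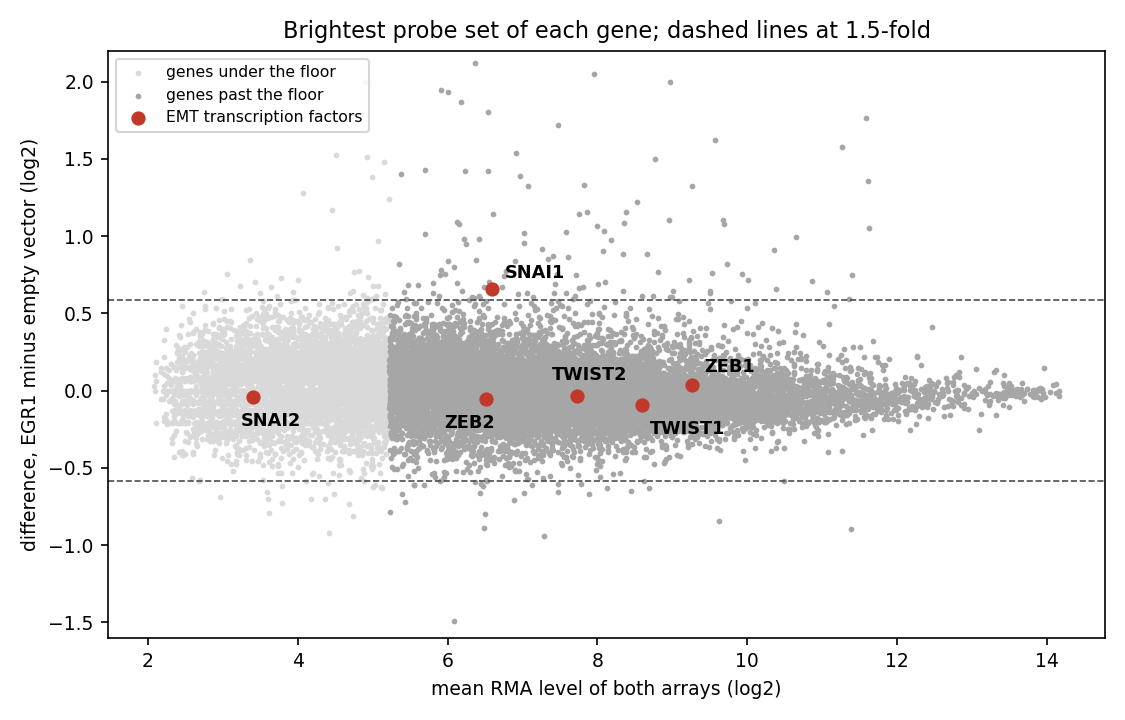
Difference between the EGR1 array and the empty-vector array (log2) against the mean level of both arrays (log2) for the brightest probe set of each named gene, with the 6 EMT transcription factors in red; 6 genes lie beyond the vertical axis. SNAI1 lies above the upper 1.5-fold line, and ZEB1, ZEB2, TWIST1, TWIST2 and SNAI2 lie within 0.1 of 0.

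The corepressors and chromatin partners of these factors were examined next. Of 29 listed genes 27 were measured, all past the floor. In this list 1 gene was called higher and none lower, and the list median was 0.008. Of all genes past the floor 0.941% were called higher and 0.229% lower, shares that apply to the counts of the lists below too. All lists were chosen with earlier results of these data known, so a count set beside these shares is not a test. The called gene was RCOR1 (CoREST), the scaffold that joins the demethylase KDM1A to the deacetylases HDAC1 and HDAC2, a complex that SNAI1 recruits through its SNAG domain. RCOR1 read 10.36 in the EGR1 array and 9.65 in the empty-vector array by its brightest probe set, 1.64-fold higher, and its other probe set, with levels of 5.86 in the EGR1 array and 5.15 in the empty-vector array, gave 1.63-fold. Both RCOR1 probe sets thus gave nearly the same difference, larger than the pooled SD. At their brightest probe sets the other parts of that complex differed little, KDM1A by -0.07, HDAC1 by -0.07 and HDAC2 by -0.16.

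The next largest differences in that list were those of the Ajuba-family LIM proteins, which bind the SNAG domain of Snail and act as corepressors. WTIP read 7.73 in the EGR1 array and 7.32 in the empty-vector array (difference 0.41, 1 probe set). AJUBA read 7.82 in the EGR1 array and 7.52 in the empty-vector array (0.31), with 0.05 in its probe set under the floor. LIMD1 differed by 0.23 at its brightest probe set and by -0.03 at the other, under the floor. None of these 3 reached 1.5-fold. CTBP1 and CTBP2, the corepressors of the ZEB proteins, differed by 0.01 and -0.02, and the Polycomb subunits EZH2 and SUZ12 by 0.09 and -0.12.

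Among 20 other transcription factors tied to the mesenchymal state, 18 were measured and 14 were past the floor. LEF1, an HMG-box factor through which Wnt signals act, was the gene called in this list, and no gene was called lower. LEF1 read 7.53 in the EGR1 array and 6.51 in the empty-vector array, 2.03-fold higher. All 9 LEF1 probe sets were higher in the EGR1 array, from 0.17 to 1.02, and the 3 past the floor from 0.60 to 1.02; averaged over all 9 the difference was 0.48, under 1.5-fold. TBXT (Brachyury), a mesoderm factor, differed by 0.48 with levels of 5.79 in the EGR1 array and 5.31 in the empty-vector array. GATA6 differed by 0.29 and SOX9 by 0.25. The E proteins that pair with the TWIST factors, TCF3 and TCF4, differed by 0.004 and -0.12. The list median was 0.11.

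The family relatives showed no call, where 1.17% of all genes past the floor were called either way. All 11 listed genes were measured, with a median difference of 0.02, and 6 were past the floor, with a median of -0.02. SNAI3, the third Snail gene, was under the floor at 4.64 in the EGR1 array and 4.56 in the empty-vector array. Of the relatives of TWIST, FERD3L differed by 0.23, MSC by -0.16, HAND1 by -0.08 and HAND2 by -0.04, each with 1 probe set past the floor.

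Epithelial-state factors that oppose the Snail and ZEB genes were mostly dim. Of 16 listed genes 14 were measured and 6 were past the floor, with 1 called higher and none lower. The called gene was GRHL1, a grainyhead-like factor of epithelial barriers, at 7.32 in the EGR1 array and 6.48 in the empty-vector array, 1.79-fold higher; its other probe sets, nearer the floor, differed by 0.25 and 0.29, and the mean over all 3 was 0.46, under 1.5-fold. OVOL1, a zinc-finger repressor of ZEB1 in epithelia, differed by 0.57 at its brightest probe set, from an empty-vector level of 5.05 under the floor, and by -0.38 at the next. FOXA1 differed by 0.32. KLF4 differed by -0.32 at its brightest probe set and 0.12 at the other. GRHL2 and the epithelial splicing factors ESRP1 and ESRP2, all known to be shut off by ZEB1, lay under the floor in both arrays, with EGR1-array levels of 4.41, 4.24 and 4.20.

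**Figure D3:**
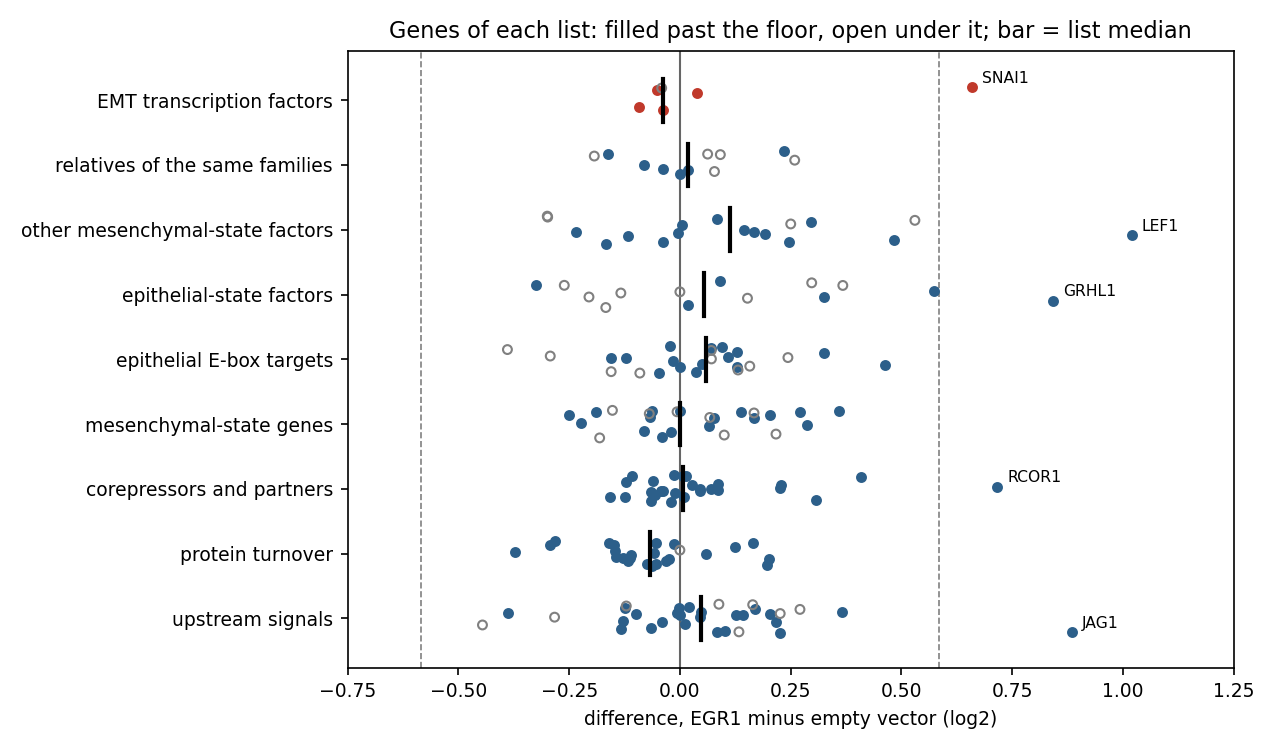
Difference between the EGR1 array and the empty-vector array (log2) of the brightest probe set of each measured gene in 9 lists; filled points are past the floor, open points are under it, the black bar is the list median and the dashed lines mark 1.5-fold. Past the upper line lie SNAI1 (0.66), LEF1 (1.02), GRHL1 (0.84), RCOR1 (0.72) and JAG1 (0.88), 1 gene in each of their lists. The lists were chosen with earlier results of these data known.

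On a list of epithelial genes that the factors are known to repress none was called, against 1.17% of all genes past the floor called either way. The list does not hold every epithelial gene. KRT8 and KRT18, on a separate list of simple-epithelium markers given below, were past 2-fold higher. At that share a list of this size will often hold no call. Of 25 listed genes 24 were measured and 15 were past the floor; the list median was 0.06. CDH1, encoding E-cadherin, lay under the floor at 3.711 in the EGR1 array and 4.004 in the empty-vector array, and its 2 probe sets differed by -0.29 and 0.27. EPCAM, an epithelial adhesion molecule, was also under the floor, at 3.75 in the EGR1 array and 4.14 in the empty-vector array, and each of its 3 probe sets was lower in the EGR1 array. CLDN1, a tight-junction claudin, differed by 0.32 at its brightest probe set (8.47 in the EGR1 array, 8.15 in the empty-vector array), and its 4 probe sets lay between 0.30 and 0.35, each over 2 times the pooled SD. Cingulin (CGN) differed by 0.46 at its brightest probe set but by 0.10 and -0.03 at the others. MUC1 differed by 0.13, and the receptor phosphatase PTPRF by -0.16.

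RefSeq windows were held for 15 of these epithelial genes, and 8 of the 15 contained CAGGTG, against 20.6% of all genes; the list was drawn up from genes known to be repressed through E-boxes, so this share is not independent evidence. The 8 with a match differed by -0.16 to 0.13 (median 0.06) and the 7 without by -0.16 to 0.46 (median 0.11). Under the floor were TJP3 and CLDN7 among those with a match and CLDN3 and MARVELD2 among those without. The 0.46 was that of CGN at its brightest probe set, and the split was not tested. CRB3, with 5 matches in the window shown above, differed by 0.04, at 7.11 in the EGR1 array and 7.08 in the empty-vector array. CLDN1 and CGN, the epithelial genes with the largest positive differences, held none in these windows.

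Genes of the mesenchymal state likewise gave no call among the 17 past the floor, of 25 measured and 26 listed, and their median was 0. Of all genes past the floor 1.17% were called either way. The intermediate filament gene VIM (vimentin) read 13.66 in the EGR1 array and 13.73 in the empty-vector array. N-cadherin (CDH2) differed by 0.08, and fibronectin (FN1) by 0.14 with all 8 of its probe sets above 0. S100A4, a calcium-binding protein tied to motility, differed by 0.36 (7.37 in the EGR1 array, 7.01 in the empty-vector array), and its 3 probe sets lay between 0.24 and 0.36. LOX differed by 0.29 and the gelatinase MMP2 by 0.27, but for each gene as many probe sets were below 0 as above it. NT5E (CD73) was lower in the EGR1 array by all 3 of its probe sets, from -0.25 to -0.03. CALD1 (caldesmon), an actin-binding protein, was lower by all 10 of its probe sets, from -0.63 to -0.13 with a mean of -0.37, and by -0.22 at its brightest. In both arrays VIM and CDH2 were past the floor, and CDH1, EPCAM, GRHL2 and ESRP1 under it. These genes are named for their known roles and do not stand for their lists. Of the 25 measured mesenchymal genes 8 were under the floor, COL3A1 and POSTN among them. Of the 24 measured epithelial genes 15 were past it, CLDN1 and PTPRF among them.

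Of 32 listed upstream signals that induce the factors, all were measured and 24 were past the floor, with 1 called higher and none called lower. The median was 0.05 over all 32 and 0.03 over the 24 past the floor. The called gene was JAG1, a Notch ligand, at 9.11 in the EGR1 array and 8.22 in the empty-vector array, 1.85-fold higher. Its 6 probe sets were not uniform, since 4 differed by 0.67 to 0.94 and the others by -0.03 and -0.16, and their mean was 0.50, under 1.5-fold. NOTCH1 differed by 0.23 and SMAD4, the shared mediator of TGF-beta and BMP signals, by 0.37 at its brightest probe set, but 5 of 7 SMAD4 probe sets and 2 of 3 NOTCH1 probe sets were below 0. TGFB1 had the same value of 7.63 in both arrays, and the receptors TGFBR1 and TGFBR2 differed by 0.08 and 0.17. EGR1 itself is on this list, at -0.39 by its brightest probe set, 3.73 by its highest and 0.89 by the mean of all 6, so with means EGR1 was past 1.5-fold and JAG1 was not.

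The EMT factors are short-lived proteins, so the genes that set their turnover were listed as well. Of 31 listed genes 26 were measured and 25 were past the floor; none was called, 20 were below 0 and 5 above, and the median was -0.07. Of all genes past the floor 52.8% were below 0, with a median of -0.02, and of all genes 47.9%, with a median of 0. These shares were not matched for level. After a lowess correction, which allows for level, the median of the turnover list was -0.05. FBXL14, a ubiquitin ligase of Snail, differed by 0.20 and FBXO45, a ligase of EMT factors, by -0.28 with all 3 probe sets below 0. MDM2 differed by -0.37 and the kinase IKBKB by -0.29, although probe sets of both went either way. GSK3B and BTRC, the kinase and the ligase adaptor that mark SNAI1 for destruction, differed by -0.05 and -0.06. Protein levels were not measured.

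**Figure D4:**
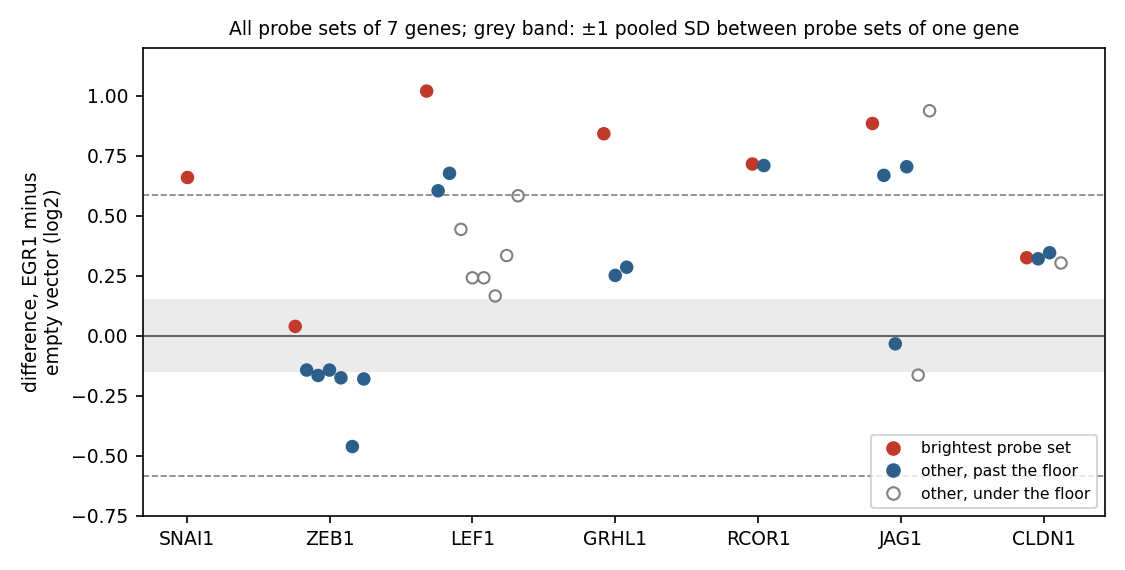
Difference between the EGR1 array and the empty-vector array (log2) for every probe set of SNAI1, ZEB1, LEF1, GRHL1, RCOR1, JAG1 and CLDN1, each ordered from the brightest; open points are under the floor, the grey band is 1 pooled SD (0.15) on either side of 0 and the dashed lines mark 1.5-fold. Both RCOR1 probe sets lie past 1.5-fold and the 4 CLDN1 probe sets lie close together, whereas ZEB1 and JAG1 probe sets fall on both sides of 0.

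Markers of other cells were read because fibroblasts and endothelial cells also express ZEB and TWIST genes. Of the 9 fibroblast markers 8 were under the floor, DCN and LUM among them, and their summed log2 level was 38.2 in the EGR1 array and 38.5 in the empty-vector array. The 7 endothelial markers summed to 32.70 in the EGR1 array and 32.97 in the empty-vector array, with 4 under the floor, and the 7 measured leukocyte markers to 34.8 in the EGR1 array and 34.4 in the empty-vector array, also with 4 under the floor. Of the leukocyte genes past the floor CD3E differed by 0.30 (its empty-vector level of 5.18 was under the floor), NKG7 by 0.24 and CD68 by 0.13; of the endothelial genes PECAM1 differed by 0.20, KDR by -0.12 and VWF by -0.008; the fibroblast marker PDGFRB differed by -0.07. No gene of these 3 lists was called. Of the 7 measured lung epithelial markers 5 were past the floor and SFTPA1 and SCGB1A1 were under it; NKX2-1 differed by 0.30, NAPSA by 0.22, SFTPC by -0.14 and FOXJ1 by 0.12. Among simple-epithelium markers KRT8 (3.99-fold higher) and KRT18 (3.39-fold higher) were past 2-fold, all by _x_at probe sets that can bind similar transcripts, while KRT19 differed by 0.24 and KRT7 by -0.55 (its EGR1-array level of 5.202 was under the floor). EPCAM and CDH1, also on that list and under the floor, differed by -0.39 and -0.29 at their brightest probe sets. Of the 6 markers 3 were above 0 and 3 below, with a median of -0.03. The 6 markers summed to 40.7 in the EGR1 array and 37.9 in the empty-vector array, a sum that does not describe each marker. Their part in the SNAI1 difference was not tested.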

How the data were processed

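Per the submitters' processing notes the authors processed the arrays with RMA, and the deposited table holds 1 log2 level per probe set, used without further normalization. RMA software, settings and genome build were not given in the sources used here. Of 49395 probe sets 44988 had 1 gene symbol in the platform annotation, 1832 had several, 2473 had none here and 102 were controls; 44961 matched the RefSeq gene table (GRCh38.p14) by Entrez ID. The EMT genes and all other lists were chosen with earlier results of these data known. Named were all EMT probe sets, EGR1, and in each list up to 4 genes past the floor, those of largest absolute difference; other genes are named for their known role, with their values already seen. With 2 arrays no likeness of pattern between genes was ranked. Promoter windows were cut to the bases before the start site. Calls were tested on simulated data. Alternatives were the mean or median of all probe sets, no _x_at or _s_at probe sets, a lowess correction, centring on the median difference, and other floors. The number of arrays limits the precision. Python 3.11.15, pandas 2.3.3 and statsmodels 0.14.6 were used.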

Additional observations from a re-analysis of the deposited data

How the results depend on the processing

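SNAI1 stayed past 1.5-fold under every alternative tried (0.66 to 0.68), but with 1 probe set most of them cannot change it, and none replaces a replicate. ZEB1 was -0.18 with the mean and -0.17 with the median of its probe sets, and -0.18 with 1 of its equal pair left out, an alternative chosen after seeing the data; it could not be computed without _x_at and _s_at probe sets. Without those types ZEB2 was -0.30 and TWIST2 -0.29, since the dim probe set of each was then the one left. Among list medians, that of the simple-epithelium markers was -0.38 without those types and 1.003 over members past the floor, where the epithelial-factor and leukocyte medians were 0.21 and 0.24; the other 80 of 84 alternative medians moved by less than the pooled SD of 0.15, and 9 of the 84 changed sign. Over all genes, 29 were called lower at 1.5-fold, and 16 with the mean of probe sets, 18 with the median and 48 with no floor. The 1 gene lower at 2-fold became 0 with the mean, the median and a floor at the 60th percentile; no p-values exist beside these counts. No paired analysis was possible because each group held 1 array. LEF1, GRHL1 and JAG1 were under 1.5-fold with the mean of their probe sets, and the upstream count stayed at 1 because EGR1 was then past it. With the median LEF1 and GRHL1 were again under 1.5-fold, whereas JAG1 stayed past it. Centring on the median difference brought the epithelial-factor count from 1 to 2, the added gene being OVOL1. RMA levels carry no detection call, which limits SNAI2 most.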

Other observations

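Probe sets that give the same non-zero difference to 5 decimals were found in 436 of the 11734 genes with 2 or more probe sets (3.72%). ZEB1 was 1 of them, through 11721545_x_at and 11734686_x_at, and LEF1 another, through 11726332_a_at and 11736566_a_at, both under the floor at 4.36 in the EGR1 array and 4.12 in the empty-vector array. Whether these probe sets share probes was not tested. Of the 27 corepressor genes with a RefSeq promoter window 9 (33.3%) held the EGR1 motif GCGNGGGCG. It was held by 10.1% of all genes with a window. The counts were 2 of 15 epithelial genes (13.3%), 1 of 10 epithelial-state factors (10%) and 1 of 16 mesenchymal genes (6.25%). Of the EMT transcription factors with a window 1 of 3 held it (33.3%). The motif is mostly G and C, the shares were not matched for base composition, and their difference was not tested. RCOR1, the 1 called gene of the corepressor list, did not hold the motif in its window, nor did LEF1 or GRHL1.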
